A study of Mus musculus with 8 samples.

Results

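One-residue neighbours of expanded TCR β clonotypes were examined in endogenous CD8+ T cells (en-T cells) of mice given adoptive T-cell therapy. A neighbour was a deposited β-chain row under 10 reads whose CDR3 had the same length, V segment and J segment as an expanded row of any mouse and differed from it at exactly 1 amino acid. An expanded row had 10 reads or more. By this rule 425 of the 59869 rows under 10 reads were neighbours (0.71%), sought around the 262 expanded rows of 8 libraries. The read counts thus chose both the expanded rows and the neighbours, and the counts on either side of the limit are descriptive: 49 rows had 9 reads and 30 rows had 10 reads. Around expanded rows of the same mouse, 59 neighbour pairs were counted and 57.5 were expected from singletons (rows of 1 read) with the same V segment, J segment and CDR3 length. These were 3 pairs against 7.51 expected in CTXpre mice and 56 against 49.98 in CTXpre/CD4post mice, and the sign of the mean difference over mice turned with the read thresholds.

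All 8 mice were female C57BL/6 mice aged 6 to 8 weeks that received 200000 B16F10 melanoma cells intradermally on day 0, cyclophosphamide (CTX, a lymphodepleting drug) at 300 mg/kg on day 3, 2000000 Pmel-1 T cells on day 5 and 10000 IU of interleukin-2 daily for 3 days from day 5. Pmel-1 T cells carry a transgenic receptor for the melanocyte antigen gp100 and the Thy1.1 marker. The 3 CTXpre mice had no further treatment. The 5 CTXpre/CD4post mice were also given the CD4-depleting antibody GK1.5 at 200 μg on days 10, 17 and 24. On day 25, CD8+ Thy1.1-negative cells were sorted from pooled lymph node and spleen of each mouse, and 1 β-chain library per mouse was made from RNA. Each library held 10000 reads after down-sampling, in 5671 to 8529 rows. The paper gives a range of lymphocyte numbers for the RNA extraction, but the number of cells behind these reads is not known. The files hold receptor rows only, and the sorted cell type could not be checked against its markers.

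The β chain is assembled in the thymus from a V, a D and a J segment. Bases are trimmed and added at random where the segments meet, and the resulting CDR3 is the part of the chain that mostly touches the peptide presented by MHC. Receptors with near-identical CDR3s and the same segments can recognise the same antigen, and for this reason neighbours of expanded clonotypes are counted in repertoire studies. Near-identical CDR3s also arise independently, most often among short CDR3s with few added bases. Copying errors in PCR or sequencing are another known source of rows 1 base away from an abundant sequence.

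CTXpre/CD4post replicates 1 and 2 had 148 rows in common (the same CDR3 bases, V and J), whereas the other 27 pairs of libraries had 20 to 52. The source of these common rows was not tested. The 8 tests were repeated without them, which changed 1 unadjusted call (the difference between groups in neighbours found in other mice), while counts and rates per library include them.

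The sequences of 3 expanded clonotypes and some of their neighbours show what the rule collects. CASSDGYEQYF is shown first because it had the most neighbours, and was chosen by that number. CDR3 bases run 5′ to 3′, and capitals mark each base that differs from the expanded row. The 36 V and J names in the libraries all matched genes of GENCODE vM21 (GRCm38), so positions are given on chromosome 6 of that build. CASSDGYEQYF was expanded in CTXpre/CD4post replicate 5 (42 reads) and used TRBV13-1 (41116007 to 41116468, plus strand) and TRBJ2-7 (41543810 to 41543856, plus strand). It is followed by its 6 neighbours in the same mouse and by 3 in other mice.
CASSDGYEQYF, expanded: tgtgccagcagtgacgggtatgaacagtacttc
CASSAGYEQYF, same mouse: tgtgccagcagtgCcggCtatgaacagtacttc
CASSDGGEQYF, same mouse: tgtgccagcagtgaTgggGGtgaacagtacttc
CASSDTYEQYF, same mouse: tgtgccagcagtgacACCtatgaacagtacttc
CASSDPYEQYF, same mouse: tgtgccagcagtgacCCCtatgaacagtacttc
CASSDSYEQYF, same mouse: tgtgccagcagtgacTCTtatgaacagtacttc
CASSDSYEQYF, same mouse, other bases: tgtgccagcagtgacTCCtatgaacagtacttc
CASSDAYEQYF, CTXpre replicate 3: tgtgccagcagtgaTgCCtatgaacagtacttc
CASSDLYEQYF, CTXpre/CD4post replicate 1: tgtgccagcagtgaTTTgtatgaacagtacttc
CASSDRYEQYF, CTXpre/CD4post replicate 1: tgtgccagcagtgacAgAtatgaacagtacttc

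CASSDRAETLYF was expanded in CTXpre replicate 3 (11 reads) and used TRBV13-3 (41130147 to 41130585) and TRBJ2-3 (41543223 to 41543271). It is shown because it was the expanded row with most same-mouse neighbours in the CTXpre group.
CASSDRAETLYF, expanded: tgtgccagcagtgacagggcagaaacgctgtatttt
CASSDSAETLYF, same mouse: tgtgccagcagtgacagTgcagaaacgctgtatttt
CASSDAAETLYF, same mouse: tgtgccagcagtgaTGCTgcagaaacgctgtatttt
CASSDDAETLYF, CTXpre/CD4post replicate 2: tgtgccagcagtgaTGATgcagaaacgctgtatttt

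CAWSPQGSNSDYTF was expanded in CTXpre/CD4post replicate 2 (20 reads) and used TRBV31 (41557691 to 41558452, minus strand) and TRBJ1-2 (41534001 to 41534048, plus strand). It is shown because its neighbour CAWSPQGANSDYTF held more reads than any other neighbour, and occurred in the same mouse 1 base away and in another mouse 2 bases away.
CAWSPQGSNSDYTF, expanded: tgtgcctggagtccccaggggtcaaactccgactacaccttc
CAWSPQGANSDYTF, same mouse: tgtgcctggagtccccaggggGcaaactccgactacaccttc
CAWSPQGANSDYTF, CTXpre/CD4post replicate 4: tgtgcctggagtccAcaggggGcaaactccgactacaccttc

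In the first set, 5 of the 6 same-mouse rows differed from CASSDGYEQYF at 3 bases and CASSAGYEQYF at 2, although each differed at a single residue. No row of this set was 1 base from the expanded row.

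The 425 neighbours comprised 320 amino acid clonotypes (CDR3, V and J) and 597 reads. Of these rows, 330 held 1 read (77.6%), against 83.7% of all rows under 10 reads. The other 95 held 2 to 9 reads, 65 of them 2 reads. Only 59 neighbours had an expanded row in their own mouse, and 366 had one in other mice only. Of all neighbours, 202 were near an expanded row of another mouse of their group and 166 near one of the other group, with some counted under more than 1 relation. Only 7 neighbours were near 2 expanded rows. No expanded row was 1 residue from another expanded row.

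The CTXpre libraries held 50, 55 and 51 neighbours in replicates 1 to 3. The CTXpre/CD4post libraries held 48, 69, 50, 59 and 43 in replicates 1 to 5. Per 1000 rows under 10 reads these were 6.22, 6.45 and 6.45 in CTXpre mice and 6.83, 8.31, 6.60, 8.51 and 7.71 in CTXpre/CD4post mice, so the groups did not overlap. Of the 262 expanded rows, 232 were in CTXpre/CD4post mice (42, 17, 26, 52 and 95) and 30 in CTXpre mice (14, 8 and 8). Neighbours of all of them were sought in every library. The order of the groups, and whether this imbalance bears on it, were not tested.

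**Figure D1:**
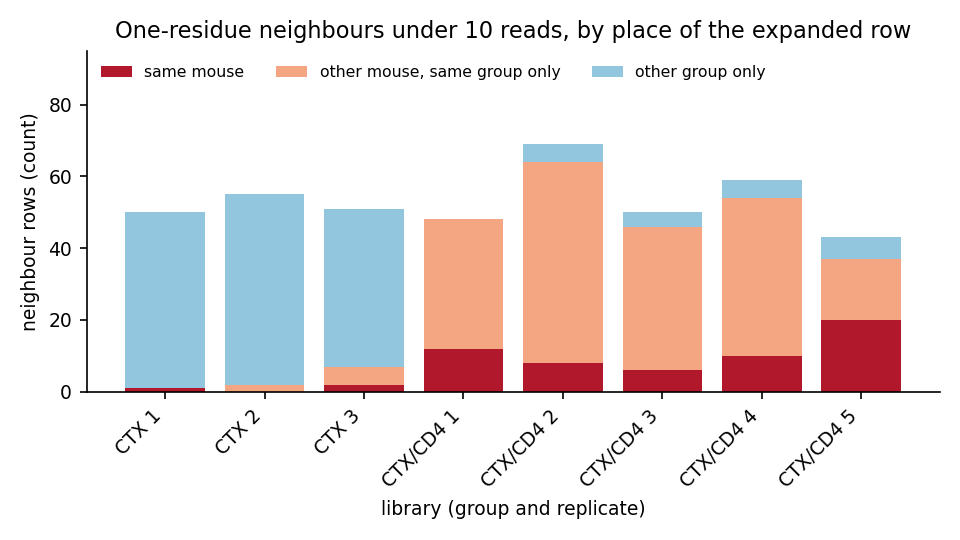
Number of neighbours (rows under 10 reads) in each of the 8 libraries, stacked by where the expanded row was; CTX stands for CTXpre and CD4 for CTXpre/CD4post. Same-mouse neighbours number 0 to 2 in the CTXpre mice and 6 to 20 in the CTXpre/CD4post mice, and most CTXpre neighbours belong to expanded rows of the other group.

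Same-mouse neighbours numbered 1, 0 and 2 in the CTXpre mice and 12, 8, 6, 10 and 20 in the CTXpre/CD4post mice. The 95% Poisson intervals of these counts were 0.0253 to 5.57, 0 to 3.69 and 0.242 to 7.22 in CTXpre mice, and 6.20 to 21.0, 3.45 to 15.8, 2.20 to 13.1, 4.80 to 18.4 and 12.2 to 30.9 in CTXpre/CD4post mice. No molecular identifiers are named for these libraries, and such intervals cover counting error only. Singletons of the same mice, with V, J and length matched, gave expected counts of 1.92, 2.20 and 3.39 in CTXpre mice and 14.7, 7.41, 2.26, 8.11 and 17.5 in CTXpre/CD4post mice. In each mouse the expected count lay within the interval of the observed one.

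To set mice with many and few expanded rows on 1 scale, neighbours were counted per 1000 candidate rows. A candidate was any row under 10 reads with the V, J and CDR3 length of the expanded row. Where rates of expanded rows and singletons are compared by mouse, only candidates with a matched singleton were used. In their own library, expanded rows had 5.71, 0 and 16.9 neighbours per 1000 candidates in CTXpre mice and 25.2, 48.8, 32.6, 23.1 and 28.9 in CTXpre/CD4post mice. The matched singletons had 10.96, 25.3 and 28.7 in CTXpre mice and 30.8, 45.2, 12.3, 18.7 and 25.3 in CTXpre/CD4post mice. Over the 8 mice the means were 22.7 ± 15.4 for expanded rows and 24.7 ± 11.03 for singletons (SD, n = 8). Expanded rows exceeded singletons in 4 mice, all CTXpre/CD4post, and were below them in the other 4. The mean difference of −2.01 was smaller than its SD between mice of 13.4, and the exact two-sided sign-flip test gave p = 0.672 (adjusted p = 0.672 over the 8 tests made; smallest possible p 0.0078125). The sign of this difference was not stable: it was 1.12 with expanded rows of 5 or more reads and neighbours under 5, 10.9 with expanded rows of 20 or more reads, 1.32 without CTXpre replicate 2 and −5.20 without CTXpre/CD4post replicate 3. A p above the threshold of 0.05 does not show that the rates were alike.

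In the libraries of the other 7 mice, the same expanded rows had 6.93, 9.06 and 19.6 neighbours per 1000 candidates for CTXpre mice and 17.2, 22.7, 22.4, 17.7 and 23.6 for CTXpre/CD4post mice. The singletons had 17.1, 21.2 and 32.5 for CTXpre mice and 24.6, 27.6, 20.3, 19.8 and 24.3 for CTXpre/CD4post mice. Expanded rows lay below singletons for 7 of 8 mice, all but CTXpre/CD4post replicate 3. Since each value uses the other 7 libraries, these values share most of their candidates, which neither the sign-flip test nor the test between groups takes into account. The mean difference was −6.01 ± 5.54 (SD, n = 8; exact sign-flip p = 0.0312, adjusted p = 0.143), which did not pass after adjustment for the 8 tests. Of the 373 pairs with other mice, 366 had a matched singleton to compare with, and 434.9 were expected in their place. Without CTXpre replicate 2 the difference was −4.27 (exact p = 0.0938) and without CTXpre/CD4post replicate 1 it was −4.53 (exact p = 0.0938), so its unadjusted call rested on each of these mice. The direction turned with expanded rows of 5 or more reads and neighbours under 5 (2.08, exact p = 0.695). The unadjusted call was also lost with expanded rows of 20 or more reads (−6.58, exact p = 0.328), with clonotypes defined by amino acids (−4.80, exact p = 0.0625) and against rows of 2 to 9 reads in place of singletons (−5.84, exact p = 0.125).

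**Figure D2:**
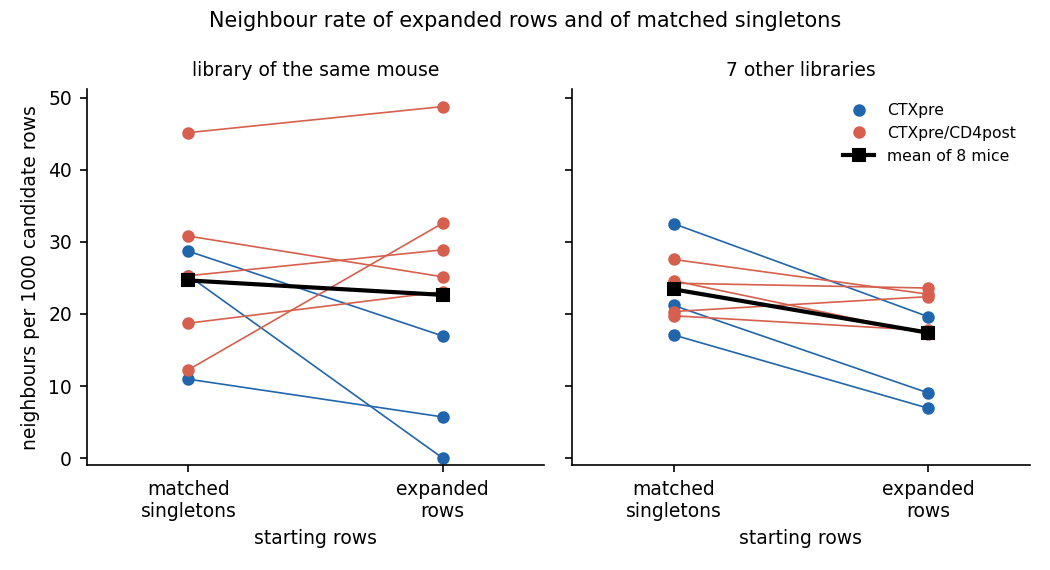
Neighbours per 1000 candidate rows for expanded rows and matched singletons in each mouse, in the own library and in the 7 other libraries, with 1 line per mouse. Lines run in both directions in the own library (4 up, 4 down), and 7 of 8 expanded rates lie below the singleton rates in the other libraries.

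Expanded rows had 5.19 ± 10.6 more neighbours per 1000 candidates in their own library than in the libraries of other mice (SD, n = 8). This difference was taken over all candidates, including those without a matched singleton, so it departs slightly from the rates above. The difference was positive in all 5 CTXpre/CD4post mice (7.95, 26.4, 10.7, 5.15 and 4.24) and negative in all 3 CTXpre mice (−1.14, −8.90 and −2.83), and did not differ from 0 in the exact sign-flip test (p = 0.203, adjusted p = 0.325). Over candidates with a matched singleton only, own minus other library less the same difference of the singletons was 4.00 ± 8.78 (exact sign-flip p = 0.25, adjusted p = 0.333). This value was positive in 7 of 8 mice. Without CTXpre replicate 2, the mouse with no same-mouse neighbour, it was 5.59 (exact p = 0.0312 before adjustment), and without CTXpre/CD4post replicate 3 it was 2.14 (exact p = 0.438). Without CTXpre/CD4post replicate 2, own minus other library was 2.64 (exact p = 0.344). Both values turned with expanded rows of 5 or more reads and neighbours under 5, to −2.01 for own minus other library and −0.954 for this less singletons. With expanded rows of 20 or more reads they were 14.8 (exact p = 0.109) and 17.5 (exact p = 0.0234 before adjustment).

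Between groups, the same-mouse excess (the rate of expanded rows minus that of singletons) was −5.24, −25.3 and −11.8 in CTXpre mice and −5.66, 3.61, 20.3, 4.37 and 3.59 in CTXpre/CD4post mice. The groups overlapped at CTXpre/CD4post replicate 1. The means were −14.1 ± 10.2 (SD, n = 3) and 5.25 ± 9.39 (SD, n = 5), and the difference of 19.4 gave a two-sided p of 0.0714 by exact Mann–Whitney U-test (adjusted p = 0.190; smallest possible p 0.0357). Of 11 alternatives beside leaving out mice, 6 reached p = 0.0357 before adjustment, with differences of 19.4 (exact permutation of the means) to 29.6 (expanded rows of 20 or more reads), and the difference turned to −2.68 (exact p = 0.786) with expanded rows of 5 or more reads and neighbours under 5. The 3 CTXpre values rest on 30 expanded rows and 3 same-mouse pairs.

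The other-mouse excess was −10.2, −12.1 and −12.9 for CTXpre mice and −7.42, −4.82, 2.06, −2.04 and −0.672 for CTXpre/CD4post mice. The groups did not overlap. Its difference of 9.15 between means of −11.7 ± 1.41 (SD, n = 3) and −2.58 ± 3.67 (SD, n = 5) had the smallest p the exact Mann–Whitney U-test allows (p = 0.0357), and an adjusted p of 0.143. Without the rows common to CTXpre/CD4post replicates 1 and 2 the difference was 8.41 (exact p = 0.0714), against rows of 2 to 9 reads in place of singletons it was 10.6 (exact p = 0.143), and without CTXpre/CD4post replicate 4 it was 6.72 (exact p = 0.114). It turned to −7.20 (exact p = 0.393) with expanded rows of 5 or more reads and neighbours under 5, and with expanded rows of 20 or more reads it was 18.9 (exact p = 0.25). Over all candidates, with or without a matched singleton, expanded rows of CTXpre/CD4post replicate 5 had 66 neighbours among 3138 candidates of CTXpre libraries (21.0 per 1000). They had 102 among 3800 candidates of the other CTXpre/CD4post libraries (26.8 per 1000). The order of these rates varied between mice: CTXpre/CD4post replicate 2 had 9.58 in CTXpre libraries and 34.6 in those of its group, and replicate 3 had 28.8 and 15.1.

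At the level of bases, 3 of the 59 same-mouse pairs were 1 base apart (5.08%), against 20 of the 373 pairs with other mice (5.36%). Singletons with the V, J and length of an expanded row were paired with their own neighbours under 10 reads. These pairs were 1 base apart in 384 of 4710 same-mouse cases (8.15%) and in 2371 of 31702 cases between mice (7.48%). The shares of singletons are unweighted, and a pair in which both rows are singletons is counted from each side. The median difference was 3 bases in all 4 classes, and 3 bases was the most common difference among same-mouse pairs (24 of 59, 40.7%). Per mouse, the share of same-mouse pairs 1 base apart exceeded the share in other mice by 16.7 ± 39.1 percentage points (SD, n = 7; exact sign-flip p = 0.375, adjusted p = 0.429, smallest possible p 0.015625), and the difference was positive in 3 mice and negative in 4. Without CTXpre replicate 1, which has a single same-mouse pair, it was 3.19 percentage points, with CDR3s from C to F or W only 2.86, and with expanded rows of 5 or more reads and neighbours under 5 −3.05. With expanded rows of 20 or more reads it was 7.54 percentage points.

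**Figure D3:**
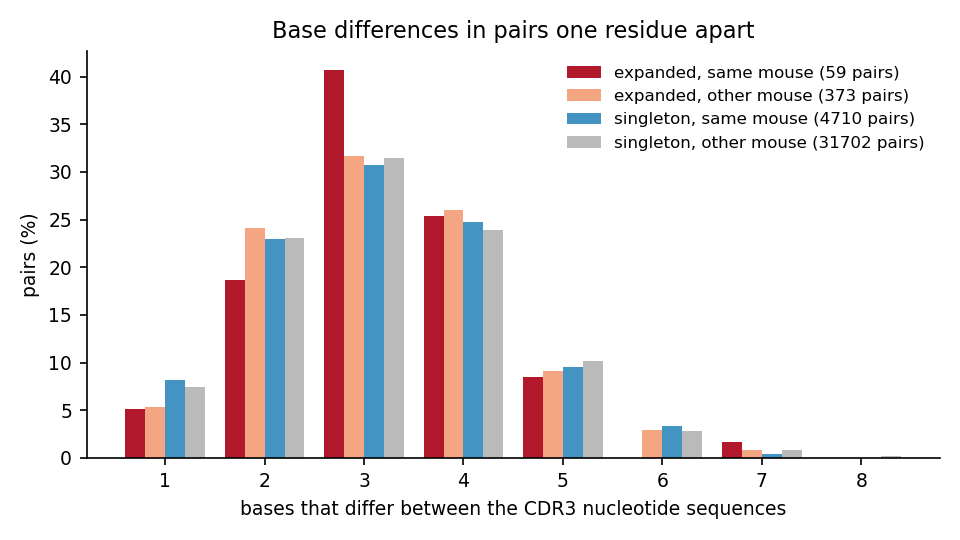
Percent of neighbour pairs at each number of differing CDR3 bases, for expanded rows and for singletons of the same V, J and length, in the same mouse and in other mice. All 4 distributions have a median of 3 bases, and the share at 1 base is 5.08% and 5.36% for expanded rows and 8.15% and 7.48% for singletons.

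The 3 same-mouse pairs that were 1 base apart are given in full, positions counted from 1 at the first base or residue of the CDR3. In CTXpre replicate 1, a TRBV12-2 and TRBJ2-5 row of 15 residues (2 reads) differed from an expanded row (13 reads) by T3G, which turns the conserved first cysteine to tryptophan (C1W). In CTXpre replicate 3, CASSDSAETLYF (5 reads) differed from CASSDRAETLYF (11 reads) by G18T (R6S), and this clonotype was present in 3 mice. In CTXpre/CD4post replicate 2, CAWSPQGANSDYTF (6 reads) differed from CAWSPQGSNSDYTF (20 reads) by T22G (S8A). These neighbours had 2 to 6 reads, and 2 of the 3 were in CTXpre mice, which held 3 of the 59 same-mouse pairs. Rows with the amino acids, V and J of an expanded row of their mouse but other bases numbered 11, and 4 of these were 1 base away. No comparison with singletons was made for these rows.
TRBV12-2 and TRBJ2-5, expanded: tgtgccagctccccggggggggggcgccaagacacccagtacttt
TRBV12-2 and TRBJ2-5, same mouse: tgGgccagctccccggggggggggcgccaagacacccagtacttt

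Among same-mouse neighbours, those with 2 to 9 reads made up 100% in CTXpre replicate 1 (1 of 1 row), 50% in CTXpre replicate 3 (1 of 2 rows) and 16.7%, 50%, 33.3%, 20% and 15% in CTXpre/CD4post replicates 1 to 5, and CTXpre replicate 2 had no such neighbour. Other rows under 10 reads of the same V, J and length had 0% and 25% in CTXpre replicates 1 and 3 and 23.1%, 13.3%, 20.8%, 21.2% and 23.4% in the CTXpre/CD4post mice. The mean difference was 22.6 ± 38.0 percentage points (SD, n = 7; exact sign-flip p = 0.156, adjusted p = 0.312) and was positive in 4 of 7 mice. Without CTXpre replicate 1 it was 9.69 percentage points, with expanded rows of 5 or more reads and neighbours under 5 2.76, and with expanded rows of 20 or more reads 7.32. With clonotypes defined by amino acids it was 23.5 (exact p = 0.0312 before adjustment).

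Neighbours had short CDR3s with few added bases. Per 1000 rows under 10 reads there were 18.2 neighbours at 11 residues or fewer (67 neighbours), 10.2 at 12 residues, 10.1 at 13, 6.65 at 14, 3.84 at 15 and 0.964 at 16 or more (7 neighbours). The median length was 13 residues in neighbours and 14 in all rows under 10 reads and in expanded rows. Per 1000 candidates, the rate of expanded rows fell in the same order, from 124 at 11 residues or fewer to 6.39 at 16 or more, and that of singletons from 66.7 to 9.89. Expanded rows were below singletons at 12 residues (21.2 and 35.6), 13 (19.9 and 23.9) and 14 (17.4 and 19.0). At 15 residues they were above them (14.1 and 10.8). Without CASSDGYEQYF the rate at 11 residues or fewer was 66.9 (24 of 359 candidates), beside 59.96 for the singletons then matched, and was still the highest of the length classes. No test was made of these rates by length.

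**Figure D4:**
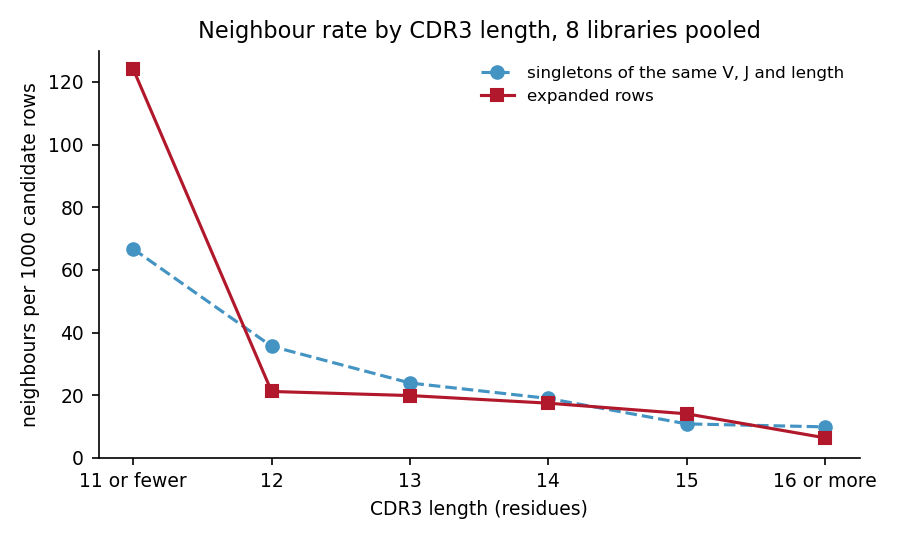
Neighbours per 1000 candidate rows by CDR3 length in amino acids, for expanded rows and for singletons of the same V, J and length. Both series fall with length, from 124 and 66.7 at 11 residues or fewer to 6.39 and 9.89 at 16 or more. Expanded rows lie above singletons at 11 or fewer and at 15 residues, and below them in the other classes. The value of 124 includes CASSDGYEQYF, without which it was 66.9.

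Inserted bases were counted as those between the V, D and J segments. Where no D segment had been assigned, all bases between V and J were counted. The mean number of inserted bases was 2.15 in neighbours and 2.99 in all rows under 10 reads. Within each of the 8 mice it was lower in neighbours than in other rows of the same V, J and length (means over mice 2.18 ± 0.318 and 2.90 ± 0.214, SD, n = 8). No D segment had been assigned to 189 neighbours (44.5%), against 27.4% of all rows under 10 reads. Neighbours were also often found in several mice: 158 of 425 (37.2%) had their amino acid clonotype in at least 2 mice, against 10.6% of all rows under 10 reads, and 9 had it in at least 6. By mouse, this share was taken over the neighbours that had other rows of the same V, J and length to compare with. It was 25%, 53.7% and 29.4% in CTXpre mice and 34.0%, 37.7%, 36%, 40.7% and 41.9% in CTXpre/CD4post mice. In each mouse it was above the share of those other rows (11.7% to 18.3%).

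Neighbours of matched singletons were described in the same way. Weighted to the V, J and length of the expanded rows, 36.5% of them were in at least 2 mice, beside 37.7% for the 430 pairs of expanded rows that could be matched. Their mean number of inserted bases was 2.20, beside 2.16. They had 2 to 9 reads in 20.4% of pairs, beside 22.8%. The shares lay further apart for pairs 1 base apart (8.55%, beside 5.35%) and for a differing residue encoded by the V segment (8.41%, beside 3.26%). These are descriptions over pairs, which share clonotypes and libraries, and carry no test.

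Expanded rows that had a neighbour also had few inserted bases. A neighbour in any mouse was found for 121 of 262 expanded rows (46.2%), comprising 11 of 30 in CTXpre mice and 110 of 232 in CTXpre/CD4post mice, and a same-mouse neighbour for 39. Those with a neighbour had 2.40 inserted bases on average and a median of 84 candidate rows over the 8 libraries, whereas those without had 3.84 inserted bases and 42 candidates. Both had a median of 15 reads.

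Among segments, TRBJ2-7 was used by 172 neighbours (40.5%) and by 21.9% of all rows under 10 reads. TRBV13-1 was used by 78 (18.4%, against 10.2%). Without the neighbours of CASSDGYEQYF alone, which used both segments, TRBJ2-7 was used by 130 of 383 neighbours (33.9%) and TRBV13-1 by 36 (9.40%). TRBV13-2, TRBV16 and TRBV4 had 37 neighbours each (8.71%), against 6.00%, 10.5% and 4.71% of all rows under 10 reads, and TRBV31 had 22 (5.18%, against 3.68%) from 27 expanded rows. Neighbours used 18 of the 24 V segments. TRBJ1-6 had none from 18 expanded rows, 7 of which were 1 clonotype with few candidate rows, described last. The rule takes V and J from the expanded rows, of which 16.03% used TRBJ2-7, 8.78% TRBV13-1, 10.3% TRBV31 and 6.87% TRBJ1-6, and the use of segments was not tested.

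The differing residue lay at positions 5 to 7 in 317 of 432 pairs (73.4%), most often at position 6 (139 pairs, 32.2%), and in 71.9% of singleton pairs (unweighted). The V segment encoded it in 14 pairs (3.24%), the junction in 365 (84.5%) and the J segment in 53 (12.3%). In singleton pairs weighted alike these shares were 8.41%, 79.0% and 12.6%. The most common exchange was between alanine and glycine (23 pairs, 5.32%), both small residues, which made up 3.92% of singleton pairs. Glycine and serine followed with 19 pairs (4.40%), against 2.75%. Proline and glutamine were exchanged in 17 pairs (3.94%), against 0.689%. Without the pairs of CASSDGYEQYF, these exchanges made up 4.62%, 2.56% and 4.36% of 390 pairs (the singleton shares of exchanges are unweighted, over all singleton pairs). Several of the proline and glutamine pairs were P5Q neighbours of a single expanded clonotype, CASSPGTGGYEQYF, and the share without it was not computed.

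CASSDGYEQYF had more neighbours than any other expanded row, 42 (9.72% of all pairs), in all 8 mice. As shares of the candidates of each library, they were 4 of 23, 11 of 34 and 3 of 24 in CTXpre replicates 1 to 3, and 7 of 18, 2 of 25, 5 of 18, 4 of 16 and 6 of 15 in CTXpre/CD4post replicates 1 to 5. The highest shares were in CTXpre/CD4post replicates 5 and 1 and the lowest in CTXpre/CD4post replicate 2, so the groups overlapped. Its own mouse, with 6 of 15 candidates (40%), had the highest share, and CTXpre replicate 2 the highest number. The 42 rows had 18 amino acid forms, and 31 of them differed at position 6, 6 at position 7 and 5 at position 5. The most common form was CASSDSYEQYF (G6S), with 9 rows in 7 mice that spelled it with 5 base sequences, and then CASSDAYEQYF (G6A), with 5 rows in 4 mice. None of the 42 rows was 1 base from the expanded row, and 9 had 2 to 9 reads. Singletons of this V, J and length were neighbours of 8.06% of their candidates, and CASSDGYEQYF of 24.3%. It was picked for its number of neighbours, so this contrast is a description.

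**Figure D5:**
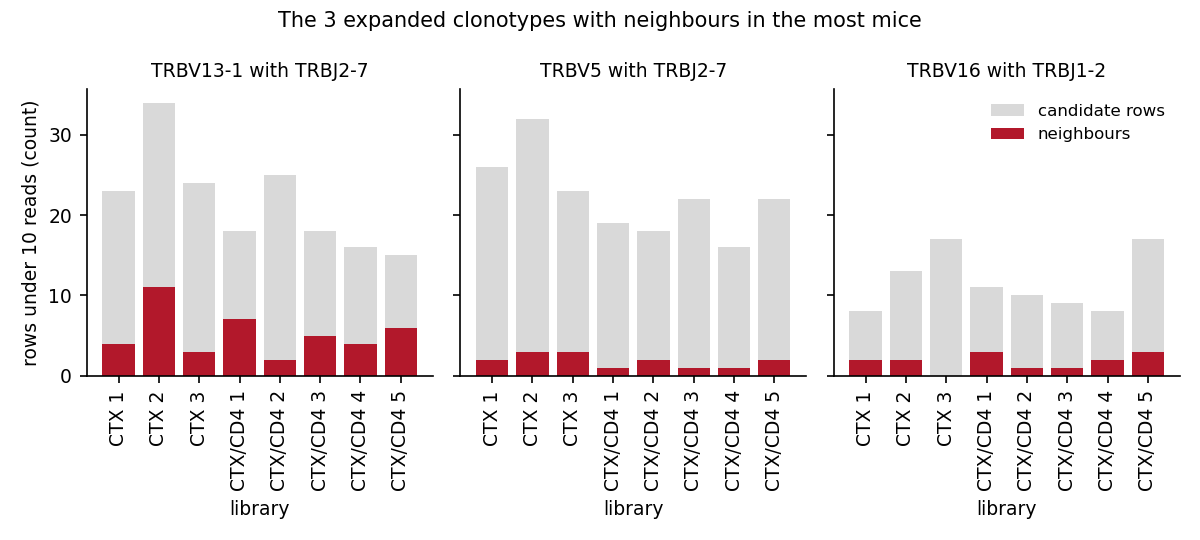
Number of candidate rows and of neighbours among them in each library, for 3 expanded clonotypes with neighbours in 7 or 8 mice. The panels, titled by V and J segment, show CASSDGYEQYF, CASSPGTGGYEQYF and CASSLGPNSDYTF in this order. Neighbours of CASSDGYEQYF make up 8% to 40% of its candidates over the 8 libraries, with both groups spread over this range.

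The next clonotypes by number of mice, and then of neighbours, were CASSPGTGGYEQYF (TRBV5, 41062332 to 41062803, and TRBJ2-7), expanded in CTXpre/CD4post replicate 4 with 14 reads, and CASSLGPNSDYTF (TRBV16, 41151740 to 41152230, and TRBJ1-2), expanded in CTXpre/CD4post replicate 5 with 17 reads. The former had 15 neighbours in 8 mice (8.43% of 178 candidates, singletons 2.08%), of which 1 was in its own mouse. The latter had 14 in 7 mice (15.1% of 93 candidates, singletons 4.95%), of which 3 were in its own mouse. None of these neighbours was 1 base away.

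In the other mice, the expanded row with the most same-mouse neighbours was named, with ties settled by reads. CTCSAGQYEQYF (TRBV1 and TRBJ2-7, 15 reads) had 3 such neighbours in CTXpre/CD4post replicate 2 and 12 in 7 mice, as many mice as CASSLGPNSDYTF. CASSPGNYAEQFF (TRBV4 and TRBJ2-1, 53 reads) had 3 in CTXpre/CD4post replicate 3 and 9 in 4 mice, 5 of them in CTXpre mice. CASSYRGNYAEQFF (TRBV4 and TRBJ2-1, 24 reads) had 2 in CTXpre/CD4post replicate 1 and 7 in 4 mice, all CTXpre/CD4post, and was 1 of 4 rows of its mouse tied at 2. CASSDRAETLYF had 2 in CTXpre replicate 3 and 11 in 6 mice, 4 of them 1 base away. The TRBV12-2 and TRBJ2-5 row of CTXpre replicate 1 and a row of TRBV1 and TRBJ2-1 (14 residues, 27 reads) in CTXpre/CD4post replicate 4 had 1 each, the latter tied with 9 other rows of its mouse, and CTXpre replicate 2 had no expanded row with a same-mouse neighbour. Thus no expanded row had more than 6 neighbours in its own mouse.

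The 4 neighbours with the most reads, 7 to 9, were in mice where their expanded relatives were not, and 6 rows tied for the next place at 6 reads. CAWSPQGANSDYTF had 9 reads in CTXpre/CD4post replicate 4, and its expanded relatives were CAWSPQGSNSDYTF (S8A, 2 bases) in replicate 2 and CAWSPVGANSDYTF (V6Q, 3 bases, 14 reads) in replicate 5 of the same group. A row of TRBV1 and TRBJ1-4 with 15 residues had 8 reads in CTXpre/CD4post replicate 3, near an expanded row (I8V, 2 bases, 12 reads) of replicate 5. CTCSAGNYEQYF had 7 reads in CTXpre/CD4post replicate 5, near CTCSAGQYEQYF (Q7N, 4 bases) of replicate 2. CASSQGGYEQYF had 7 reads in CTXpre replicate 3, near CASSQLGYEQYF (L6G, 2 bases, 11 reads) of CTXpre/CD4post replicate 5. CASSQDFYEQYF, the first of these tied rows in file order, was in CTXpre/CD4post replicate 1, near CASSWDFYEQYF (W5Q, 4 bases, 10 reads) of replicate 2. These 5 were near expanded rows of other mice only, by 2 to 4 bases, but 2 of the 6 tied rows had an expanded relative in their own mouse, among them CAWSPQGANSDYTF of CTXpre/CD4post replicate 2.
TRBV1 and TRBJ1-4, expanded: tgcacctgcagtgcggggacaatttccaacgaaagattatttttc
TRBV1 and TRBJ1-4, neighbour: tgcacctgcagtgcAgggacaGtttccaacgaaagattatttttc
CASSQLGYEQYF, expanded: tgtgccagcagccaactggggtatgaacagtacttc
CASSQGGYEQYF: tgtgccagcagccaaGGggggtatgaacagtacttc
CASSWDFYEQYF, expanded: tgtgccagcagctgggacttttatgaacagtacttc
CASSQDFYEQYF: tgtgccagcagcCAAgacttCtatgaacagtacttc

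Across groups, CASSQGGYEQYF was followed by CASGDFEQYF (TRBV13-2 and TRBJ2-7), with 5 reads in CTXpre replicate 3, near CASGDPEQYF (P6F, 2 bases, 17 reads) of CTXpre/CD4post replicate 1, and by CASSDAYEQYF (G6A, 3 bases), with 3 reads in CTXpre replicate 3, near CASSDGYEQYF. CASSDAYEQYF was found in 4 mice. It was the first in file order of 3 rows tied at 3 reads, which lay in 2 mice.

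The clonotype present in every mouse had no neighbours. This clonotype of 15 residues (TRBV14, 41135145 to 41135616, and TRBJ1-6, 41535554 to 41535606; its bases close the paragraph) had 46, 3 and 28 reads in CTXpre replicates 1 to 3 and 23, 51, 18, 23 and 28 in CTXpre/CD4post replicates 1 to 5, and was expanded in 7 of the 8 mice. Only 15 candidate rows had its V, J and length in the 8 libraries, and none was 1 residue away. The 12 singletons among them had no neighbours either. TRBV14 is the V segment of the Pmel-1 receptor. Whether this clonotype came from transferred cells was not tested, and leaving it out moved no test across its threshold.
TRBV14 and TRBJ1-6, expanded: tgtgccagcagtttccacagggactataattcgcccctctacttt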

How the data were processed

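The authors used 100 ng of RNA for nested PCR of TCR chains and MiSeq sequencing, trimmed reads with Scythe and Sickle, aligned them in MiXCR (version and reference not given in the sources used here), extracted chains with VDJtools and down-sampled each library. The submitters' processing notes name mm10 and bcl2fastq. The deposited values are counts of reads per clonotype, 10000 in each β-chain library; 1 read is the smallest share. α-chain libraries were not used.

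Members, named clonotypes, lists and tests were chosen with earlier results of these data known. Rates were standardised to the V, J and length strata of the expanded rows, and each singleton was excluded from its own candidates. The mouse was the replicate. Differences were tested by exact sign-flip over mice, and groups by the exact Mann–Whitney U-test over 56 splits, two-sided, with Benjamini-Hochberg adjustment over 8 tests (Python 3.11.15, numpy 2.4.6, pandas 2.3.3, scipy 1.17.1, matplotlib 3.10.9). The functions were tested on simulated data.

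Named clonotypes were, in each mouse, the expanded row with the most same-mouse neighbours (ties by reads), the 5 neighbours with the most reads, the 3 expanded clonotypes with neighbours in the most mice (ties by number of neighbours), the 3 neighbours with the most reads near the other group only, and the clonotype of all 8 mice with the most reads; ties in reads between neighbours were taken in file order. The rows 1 base apart and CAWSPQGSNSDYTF were added after their values were seen. Alternatives covered the thresholds, clonotype definition, common rows, comparison rows, tests and each mouse left out.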

Additional observations from a re-analysis of the deposited data

Results flagged for a closer look

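The other-mouse excess of neighbours differed between CTXpre and CTXpre/CD4post mice by 9.15 per 1000 candidates (exact Mann–Whitney U-test p = 0.0357, adjusted p = 0.143), and is listed because the difference itself passed before adjustment. It was lower in all 3 CTXpre mice than in all 5 CTXpre/CD4post mice, but these values share most of their libraries. The difference turned to −7.20 (exact p = 0.393) with expanded rows of 5 or more reads and neighbours under 5, and with expanded rows of 20 or more reads it was 18.9 (exact p = 0.25). It was 8.41 without the rows common to CTXpre/CD4post replicates 1 and 2 (exact p = 0.0714), 10.6 against rows of 2 to 9 reads (exact p = 0.143) and 6.72 without CTXpre/CD4post replicate 4 (exact p = 0.114). The 3 CTXpre values rest on 27 pairs from 30 expanded rows. In the 5 CTXpre/CD4post mice, 0 of 10 results per mouse had a value far from the others by Dixon's test, which flags about 1 in 20 groups by chance.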

How the results depend on the processing

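Of 132 recomputed values, 97 kept their direction and side of the threshold. The read thresholds turned the sign of 7 of the 8 results. At 5 reads, with neighbours under 5, 766 rows were expanded with 1414 neighbours, and at 20 reads 86 rows with 148, against 262 with 425; the cause of the changes below was not tested. At 5 reads, with neighbours under 5, signs turned: same-mouse excess 1.12, other-mouse excess 2.08, own minus other library −2.01, this less singletons −0.954 (per 1000 candidates), share of pairs 1 base apart −3.05 percentage points, group differences −2.68 (same-mouse) and −7.20 (other-mouse). At 20 reads the same-mouse excess was 10.9 (exact p = 0.391), the other-mouse excess −6.58 (exact p = 0.328), own minus other less singletons 17.5 (exact p = 0.0234, before adjustment) and the group differences 29.6 (exact p = 0.0357) and 18.9 (exact p = 0.25). With amino acid clonotypes, the other-mouse excess was −4.80 (exact p = 0.0625), the 2 to 9 read share 23.5 percentage points (exact p = 0.0312) and the same-mouse group difference 21.9 (exact p = 0.0357). Against rows of 2 to 9 reads, the other-mouse excess was −5.84 (exact p = 0.125) and the group differences 28.0 (exact p = 0.0357) and 10.6 (exact p = 0.143). The same-mouse group difference, 19.4 with p = 0.0357 by exact permutation of means, also reached that p with CDR3s from C to F or W only (21.4) and without pairs 1 base apart (22.2). Without the common rows the other-mouse group difference was 8.41 (exact p = 0.0714).

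Leaving out 1 mouse gave −5.20 to 1.32 for the same-mouse excess (positive without CTXpre replicate 2), −7.80 to −4.27 for the other-mouse excess, 2.64 to 6.66 for own minus other, 2.14 to 5.59 for this less singletons, 3.19 to 20.8 percentage points for pairs 1 base apart, 9.69 to 27.8 for the 2 to 9 read share, and 13.8 to 23.8 and 6.72 to 11.3 for the same-mouse and other-mouse group differences, where 7 mice cannot reach 0.05 (smallest p 0.0571 without a CTXpre/CD4post mouse and 0.0952 without a CTXpre mouse). Without CTXpre/CD4post replicate 4 the other-mouse difference had an exact p of 0.114, above that limit. Mice with the same replicate number are different animals (correlations of V usage 0.435, −0.329 and −0.0242 over 24 segments); with the replicate number as a block over 3 pairs the group differences were 20.2 (exact p = 0.5) and 8.33 (exact p = 0.25, the smallest possible). Leaving out the expanded row with the most neighbours, chosen after seeing the data, moved no call. Counts of 0 to 2 same-mouse pairs per CTXpre mouse limit what this depth can show.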
